A study of Mus musculus with 40 samples.

Results

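The genes described here are 91 genes whose RNA stood lower while Ctbp2 was high in Ctbp double-knockout embryonic stem cells. On day 18, after Ctbp2 had fallen again, they stood at 0.7 of their starting level or more. They were chosen from a time course of 10 libraries by their CPM (each count divided by the library's total count, times 1000000), averaged over the 2 libraries of a day. A gene had to reach 2 CPM on day 0, to stand at or below 0.5 of its day 0 level on day 3 and on day 9, and to stand at 0.7 of it or more on day 18. Symbols of the Zscan4, Usp17l, Tdpoz, Tcstv and Pramel families were left out, although 0 genes of these families met the rule. Of 55276 genes listed, 14184 reached the day 0 level, 141 of those passed the cuts on days 3 and 9, and 91 of the 141 also passed the cut on day 18. Lgals3, the gene for galectin-3, is the marker of the set, and 14 of the 91 carry predicted-gene symbols.

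All libraries came from E14tg2a, a mouse embryonic stem cell line grown in serum with leukaemia inhibitory factor, and the series asks how loss of the corepressor CtBP changes genes of the 2-cell-like state with and without Dux. The time course cells are labelled CtbpDKO on days 0, 3, 9, 12 and 18, with 2 libraries a day, and their titles include Dox but not the agent's target or schedule. In the genotype table each group has 2 libraries, and the groups are WT, CtbpDKO (Ctbp1 and Ctbp2 knocked out), DuxKO, Ctbp-Dux TKO (Ctbp1, Ctbp2 and Dux knocked out), Dppa2KO and a line called DKO-Dppa2 here. The Pramel7 table holds 4 further WT libraries, numbered 3 to 6, and pairs of libraries for a separate DuxKO set, for cells overexpressing Pramel7 (P7OE), for DuxKO cells overexpressing it (DuxKO-P7OE) and for cells knocked out for it (P7KO). The DKO-Dppa2 libraries carry a title and genotype naming Dppa2 and Dux and a description naming the Ctbp double knockout with Dppa2. Their counts of Ctbp1, 4 and 0, lie with the Ctbp knockouts, and the description was followed. No label says whether a line is 1 clone or whether libraries are separate cultures, so the p-values measure only the spread between these libraries, which may be technical.

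CtBP1 and CtBP2 are corepressors that do not bind DNA themselves. DNA-binding repressors such as the Zeb factors, Klf3 and Hic1 recruit them, and they bring histone demethylase, deacetylase and methyltransferase complexes to promoters. In fibroblasts and carcinoma cells CtBP is best known for holding down epithelial genes such as E-cadherin. Dux is a transcription factor that switches on genes of the 2-cell embryo, and Dppa2 is known to activate it in embryonic stem cells. Galectin-3 is a lectin that binds beta-galactosides on glycoproteins and marks damaged lysosomes.

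The promoters of 4 genes of the set are shown because Zeb factors, which recruit CtBP, bind the E-box CACCTG and each of these windows holds it. Each run is the 250 bases before a RefSeq transcription start in GRCm38.p6, 5′ to 3′ on the gene's strand, and capitals mark CACCTG or its reverse complement CAGGTG.

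Lgals3 (chr14:47373610-47373859, + strand): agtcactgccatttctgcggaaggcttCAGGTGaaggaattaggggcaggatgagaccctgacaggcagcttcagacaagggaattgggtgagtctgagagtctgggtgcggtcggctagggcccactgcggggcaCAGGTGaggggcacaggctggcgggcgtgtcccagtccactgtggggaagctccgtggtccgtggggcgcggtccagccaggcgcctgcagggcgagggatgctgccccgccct

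Rab27a (chr9:73044560-73044809, + strand): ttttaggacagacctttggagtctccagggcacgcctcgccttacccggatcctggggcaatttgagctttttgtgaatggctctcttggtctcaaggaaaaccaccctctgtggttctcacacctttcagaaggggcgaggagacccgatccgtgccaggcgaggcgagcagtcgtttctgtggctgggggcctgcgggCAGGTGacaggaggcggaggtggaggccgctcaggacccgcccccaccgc

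Aqp3 (chr4:41098184-41098433, - strand): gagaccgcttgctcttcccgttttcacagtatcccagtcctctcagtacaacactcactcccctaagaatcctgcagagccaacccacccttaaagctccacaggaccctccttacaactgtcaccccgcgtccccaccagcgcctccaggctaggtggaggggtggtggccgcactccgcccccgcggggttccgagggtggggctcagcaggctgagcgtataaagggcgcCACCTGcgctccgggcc

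Atp6v0a4 (chr6:38124587-38124836, - strand): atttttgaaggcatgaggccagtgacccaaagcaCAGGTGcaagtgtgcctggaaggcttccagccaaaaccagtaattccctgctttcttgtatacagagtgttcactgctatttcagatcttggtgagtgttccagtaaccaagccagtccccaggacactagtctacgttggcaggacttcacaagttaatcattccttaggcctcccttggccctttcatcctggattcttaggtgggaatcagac

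The Lgals3 window holds the motif in 2 places and the windows of Rab27a, Aqp3 and Atp6v0a4 hold it in 1 place each. All 4 windows end 1 base before the annotated start of their own gene, outside its exons. Another RefSeq start of Rab27a has a window without the motif, and the upstream windows of Cphx1, Cphx2 and Cphx3 also lack it. Of the 91 genes, 61 had a window of 250 bases before to 50 after a start in the RefSeq table, and the motif was searched on both strands. CACCTG was present for 24 of the 61 (39.34%) and for 22.43% of 12249 other tested genes. CCACCC, the letters of Klf sites, was present for 59.02% and 41.55%, and the E-box CACGTG for 3.28% and 11.28%. TGACAG, a Tgif-like site, stood at 24.59% and 19.58%, the AP-1 site TGANTCA at 9.84% and 6.28%, and TATAAA at 14.75% and 9.08%. The copies Cphx1, Cphx2 and Cphx3, whose upstream bases match, were each counted as a separate gene with TATAAA and with CCACCC. These shares are descriptions of letters in a window, with no test, and say nothing of binding.

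In the genome the set was scattered. The RefSeq table matched 87 of the 91 symbols, on 18 chromosomes with at most 8 on any 1, and gave 76 protein-coding genes, 7 pseudogenes and 4 long noncoding RNAs. A few members are neighbours: Catsperz and Kcnk4 lie 282 bases apart on chromosome 19, Rab27a and Khdc3 3758 bases apart on chromosome 9, and Lmna and Rab25 32097 bases apart on chromosome 3. Vax2 and its opposite-strand transcript Vax2os overlap on chromosome 6. The homeobox genes Cphx1, Cphx2 and Cphx3 follow each other on chromosome 14, and the 250 bases before the starts of Cphx2 and Cphx3 are the same in 250 of 250 positions. Those of Cphx1 matched either in 246 of 246 aligned positions. The transcribed sequences were not compared, so whether reads tell the copies apart is not known. Their values are therefore not taken as 3 independent measurements. In all, 26 matched members overlap another gene, among them Calcoco2, Zfp981, Hydin, Atp6v0a4, Slfn9, Anxa2 and Hbegf. Whether counting used strand is not given in the sources used here, so their counts may include reads of the neighbour.

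Ctbp2 itself gave the time axis. Its RNA stood at 58.9 and 57.2 CPM on day 0, rose to 497 and 557 on day 3, was 339.9 and 292 on day 9, and returned to 51.9 and 46.7 on day 12 and 51.2 and 54.6 on day 18. The rise to day 3 was 3.24 ± 0.11 on the log2 scale (SE, n = 2 libraries a day; edgeR adjusted p = 2.4e-09 by its quasi-likelihood test with Benjamini-Hochberg adjustment), and the fall from day 9 to day 12 was -2.69 ± 0.11 (edgeR adjusted p = 1.1e-08). Day 9 was lower than day 3 by -0.88 ± 0.10 (edgeR adjusted p = 0.0017), and between days 18 and 0 no difference was called (-0.14 ± 0.10, edgeR adjusted p = 0.63). Ctbp1 gave 0 to 4 counts in each of the 10 libraries. Ctbp2 counts can include an introduced copy, and which part of the endogenous gene was removed is not given in the sources used here.

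The rule fixed how the 91 genes moved on days 3, 9 and 18, so these values are a description with no test. The median gene stood at 34.3% of its day 0 level on day 3 (range 5.02% to 49.8%) and 38.0% on day 9 (range 0% to 49.5%), and 22 and 17 genes were under 25% of day 0 on these days. Over all 14184 genes the medians were 95.1% and 104.8%. In these bulk libraries fewer cells of a type and less RNA per cell cannot be told apart. On day 18 the median gene reached 115.6% (71.0% to 246%), and 64 of the 91 stood at or above day 0. The rule had left out genes under 0.7 of day 0 on this day, which raises both values. For all 14184 genes the day 18 median was 99.8%, with 7008 at or above day 0. Near the cuts the choice was fine-grained: at day 0, Gm12463 at 2.01, Dapk2 at 2.04 and Tspan1 at 2.04 CPM were in while Abca13 at 1.94, Gm7565 at 1.89 and 1520401A03Rik at 1.89 CPM were out. On day 3, Gm47761, Zfp981 and Rhobtb1 entered at ratios of 0.498, 0.498 and 0.497, and Gm12892, Col5a3 and Cdhr1 missed at 0.5002, 0.506 and 0.506. On day 9, Zfp981, 9930012K11Rik and Mex3b entered at 0.495, 0.493 and 0.492, and Cpm, Gm13212 and BC065397 missed at 0.505, 0.506 and 0.509. On day 18, Dapk2, Gm21936 and Abhd14b entered at 0.710, 0.718 and 0.7204, and Gm5301, Hivep3 and Unc13d missed at 0.699, 0.689 and 0.683. With the rule applied to 1 library of each day, 122 genes passed without replicate 1 and 94 without replicate 2, with 68 and 49 of the 91 among them.

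Day 12 was not used by the rule, but days 9 and 18 on either side of it were, so it too is described with no test. By day 12, when Ctbp2 was back at its day 0 level, the median gene stood at 89.9% of day 0, with 75 of 91 at 70% or more and 34 at or above 100%. The median of all 14184 genes was 106.0% on this day, with 13657 at 70% or more and 9293 at or above 100%. The members thus stood far above day 9 but still below the level of all genes. Both day 12 libraries lay above both day 9 libraries for 85 of the 91 genes, and for 25.9% of all 14184 genes. Most of the return had thus been reached at the first sampling after the fall of Ctbp2. On day 18, 72 of 91 genes stood above their day 12 mean, which the rule's cut on day 18 favours. The share of all genes that did so was not counted. At or below 0.5 of day 0 on day 12 were 6 genes, of which 5 carry predicted-gene symbols (Gm2035 25.9%, Gm21034 11.6%, Gm21936 24.2%, Gm45779 46.5% and Gm49187 17.3%). The sixth, Slfn9, a member of the Schlafen family, read 5.07 and 5.51 CPM on day 0, 1.83 and 1.78 on day 3, 0.321 and 0.905 on day 9, 1.62 and 2.02 on day 12 and 5.30 and 6.76 on day 18. These 6 include genes named after their values were seen.

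Other marker genes, none of them members, moved over the same days. Of 13 naive pluripotency genes 7 were called lower and 0 higher on day 3 against day 0 by edgeR, where 2.59% and 2.41% of 20612 genes were called, and their sum was 1294 to 1386 CPM against 1725 to 1851. On day 9, 6 of the 13 were called higher and 0 lower against day 3 (0.592% of all genes lower and 0.524% higher), and the sum was 2031 to 2153 CPM. The sum of 19 primitive endoderm genes was 714 to 846 CPM on day 0, 819 to 861 on day 3, 908 to 952 on day 9, 937 to 973 on day 12 and 1354 to 1477 on day 18. Of 17 tested, 5 were called higher and 0 lower on day 12 against day 9 (1.87% and 1.97% of all genes) and 9 and 0 on day 18 against day 0 (0.359% and 0.155%). The naive sum thus stood below its day 0 level on day 3 and above it on day 9, where the members were low on both days, and the endoderm sum stood highest on day 18. The part of these changes in the members' values was not tested.

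**Figure D1:**
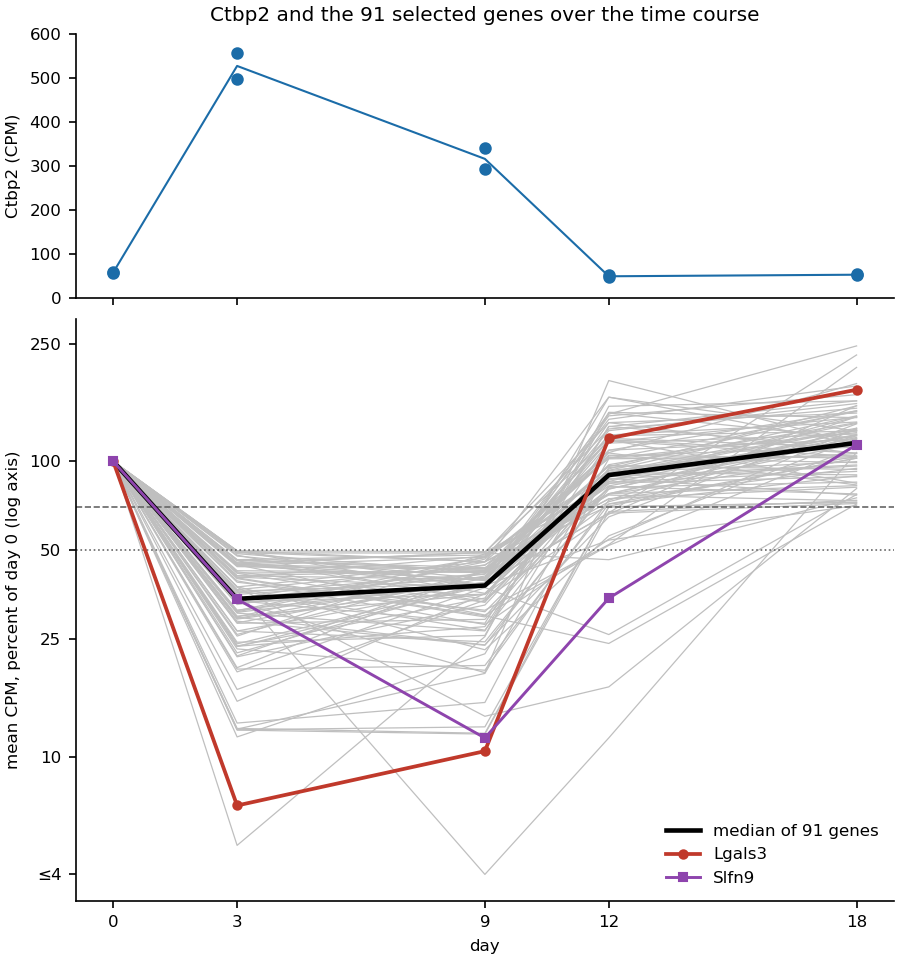
The upper panel plots Ctbp2 in each library (CPM) against the day, and the lower panel plots each of the 91 genes as a percent of its day 0 mean (log axis), with the median and the genes Lgals3 and Slfn9 drawn apart and values under the axis placed at its foot. The genes sit at or below 50% on days 3 and 9 by the rule. On day 12, 75 of 91 are at 70% or more, as are 13657 of all 14184 genes of 2 CPM or more on day 0.

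Among the 91, 65 could be given a role from general knowledge, assigned after their values were seen. The 2 galectins were Lgals3 and Lgals9, with medians of 19.8% of day 0 on day 3 and 27.6% on day 9. Lgals3 read 42.7 and 51.8 CPM on day 0, 3.00 and 3.47 on day 3, 5.18 and 4.70 on day 9, 63.6 and 49.5 on day 12 and 79.7 and 85.5 on day 18. Its day 3 and day 9 libraries lay far under all others, and on day 18 it stood at 175% of day 0.

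The cytoskeleton, nuclear lamina and cilium gave 13 members: Vim, Lmna, Myo1f, Myo1g, Myl7, Misp, Tppp3, Pak6, Arhgap30, Rhobtb1, Dpysl3, Hydin and Bbs2. Vim, the intermediate filament protein vimentin, read 271 and 296 CPM on day 0, 139 and 125 on day 3, 142 and 131 on day 9, 269 and 250.2 on day 12 and 243 and 323 on day 18. Lmna, which encodes the A-type lamins of the nuclear envelope, read 98.6 and 105, then 36.0 and 32.0, 36.3 and 36.0, 85.5 and 90.8, and 118 and 133 CPM on the same days. Both were cut by more than a factor of 2 on days 3 and 9 without going near 0. Crip1, a LIM domain protein, had 70.7 and 70.7 CPM on day 0, 18.5 to 22.8 in the 4 libraries of days 3 and 9, and 59.8 to 76.7 in the 4 of days 12 and 18.

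Membrane traffic and the cell surface gave 12 members: Rab27a, Rab25, Anxa2, Cpne5, Calcoco2, Emp1, Tm4sf5, Tspan1, Tspan17, L1cam, Itgb3 and Gpa33. Rab27a, a small GTPase that docks secretory vesicles, read 39.9 and 39.8 CPM on day 0, 9.26 and 6.54 on day 3, 8.19 and 8.06 on day 9, 27.5 and 29.7 on day 12 and 30.7 and 40.6 on day 18. Calcoco2, a receptor for selective autophagy, went from 40.7 and 32.9 to 5.90 and 6.54, then 13.8 and 11.2, 31.4 and 33.1, and 20.9 and 35.7. Its 2 day 18 libraries lay further apart than those of day 12. The 6 channels, pumps and transporters were Aqp3, Atp6v0a4, Scn9a, Kcnk4, Slc37a1 and Slc9b2. Aqp3, a water and glycerol channel, read 31.7 and 33.2 CPM on day 0, 6.34 to 10.8 on days 3 and 9, 29.6 and 29.6 on day 12 and 42.7 and 41.5 on day 18. Atp6v0a4, a subunit of the proton pump, was at 11.7% of day 0 on day 3 and 148% on day 18.

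Ligands, receptors and signalling proteins numbered 10, among them Hbegf, Fgf15, Tgfbi, Lpar1, Rgma, Rgs11, Irak2, Dapk2 and Nxph4. Hbegf, a ligand of the epidermal growth factor receptor, read 36.6 and 35.6 CPM on day 0, 14.7 to 15.6 on days 3 and 9, 30.2 and 29.4 on day 12 and 41.4 and 43.1 on day 18. The 10 enzymes and enzyme inhibitors were Gpx2, Gsta3, Cyp2s1, Acp5, Acer1, Klk10, Cpxm2, Serpinb6c, Abhd14b and Gfod1. Gpx2, a glutathione peroxidase, stood at 29.4% of day 0 on day 3, 40.9% on day 9, 77.8% on day 12 and 115% on day 18. Transcription factors numbered 9: Cphx1, Cphx2, Cphx3, Epas1, Zfp981, Zbtb7c, Vax2, Nkx6-3 and Pou4f2. Cphx2, a homeobox gene of oocytes and the early embryo, read 29.1 and 23.7 CPM on day 0, 2.41 to 3.93 on days 3 and 9, 19.3 and 17.9 on day 12 and 15.6 and 22.7 on day 18. The 3 germ cell and oocyte genes were Khdc3, Stra8 and Catsperz, whose median was 66.9% of day 0 on day 12 and 208% on day 18. Stra8, which retinoic acid induces before meiosis, read 14.3 and 12.4 CPM on day 0, 8.58 and 9.31 on day 12 and 38.6 and 22.6 on day 18. It thus stood below day 0 on day 12 and above it on day 18. The 26 members without a role comprise the 14 predicted genes and Crip1, Ndrg1, Soga3, Eprn, Misp3, Phlda2, Slfn9, Mex3b, Trim29, Vax2os, Tmem40 and Ldha-ps.

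The genotype libraries held 19944644 to 36025046 counts, the Pramel7 libraries 10123058 to 30135341 and the time course libraries 16674526 to 30169626. Of these, 10.7% to 28.6% fell on structural RNA genes. All 13 naive and all 12 core and formative pluripotency markers were detected in every group, with summed levels over all groups of 1087 to 2589 and 1499 to 3042 CPM, the changes over the time course being those given above. In the CtbpDKO libraries Ctbp1 gave 1 and 2 counts, against 63.3 and 72.2 CPM in WT, and Ctbp2 read 42.9 and 48.1 CPM against 208 and 226. Duxf3, the Dux gene as counted here, gave 0 counts in all DuxKO, Ctbp-Dux TKO and DuxKO-P7OE libraries but also 0 in Dppa2KO and DKO-Dppa2 and at most 2 in any WT library, so it tells CtbpDKO (40 and 24 counts) from Ctbp-Dux TKO but not WT from DuxKO. Dppa2 RNA read 34.1 and 28.5 CPM in Dppa2KO and 21.4 and 17.2 in DKO-Dppa2 against 56.5 and 64.0 in WT, so its transcript remained. Pramel7 read 14.4 and 25.3 CPM in P7OE, 48.4 and 58.1 in DuxKO-P7OE and at most 0.172 in WT and P7KO of that table, where the WT level is too low to check the knockout. In the time course Pramel7, outside the set, read 2.09 and 1.21 CPM on day 0, 0.0991 to 0.388 on days 3 and 9 and 0.995 to 1.76 on days 12 and 18.

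The genotype table shares no library with the time course and asks whether the same genes were higher in cells that lacked CtBP. They were: 69 of the 91 were called higher and 5 lower in CtbpDKO against WT (quasi-likelihood test of edgeR, p under 0.05 after Benjamini-Hochberg adjustment), where 14.7% of the 21193 genes tested were called higher and 11.4% lower. The median member differed by 1.92 on the log2 scale and the median of all genes by 0.01. All 91 passed the filter on low counts in this table. The rule required at least 2 CPM on day 0 in cells labelled CtbpDKO, which favours genes with RNA in such cells. Of the 47 tested genes that passed the cuts on days 3 and 9 but not on day 18, 24 were called higher and 0 lower.

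Lgals3 read 25.4 and 29.6 CPM in WT and 65.1 and 75.6 in CtbpDKO. It rose by 1.32 ± 0.12 (log2, SE, n = 2 libraries a group; edgeR adjusted p = 2.4e-06). Lgals9, a second galectin, went from 1.62 and 2.98 to 18.6 and 18.3 CPM, a rise of 2.98 ± 0.24 (edgeR adjusted p = 1.1e-06). Both galectins of the set were thus higher without CtBP, and their groups did not overlap.

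Of the 13 cytoskeleton, lamina and cilium genes, 11 were called higher and 1, Myo1f, lower. Lmna read 18.6 and 21.0 CPM in WT against 145 and 149 in CtbpDKO, a rise of 2.87 ± 0.10 (edgeR adjusted p = 7.7e-10). Vim read 74.1 and 88.5 against 330.1 and 399 (2.13 ± 0.13, edgeR adjusted p = 9.9e-08). Misp, an actin-binding protein that positions the mitotic spindle, was low in WT at 0.265 and 0.205 CPM and read 8.37 and 9.57 in CtbpDKO, a rise of 5.19 ± 0.28 (edgeR adjusted p = 6.8e-08). Hydin, a protein of the motile cilium that overlaps another gene, rose by 4.33 ± 0.34 (edgeR adjusted p = 8.1e-07). Dpysl3, a microtubule regulator of growing axons, differed by 0.20 and was not called (edgeR adjusted p = 0.30). Crip1, which has no role assigned here, went from 5.96 and 6.54 to 62.1 and 61.0 CPM.

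Among the 12 membrane and surface genes, 9 were called higher and 0 lower. Rab27a read 2.42 and 2.74 CPM in WT and 29.3 and 36.2 in CtbpDKO, a rise of 3.63 ± 0.20 (edgeR adjusted p = 2.9e-08). Calcoco2 rose by 4.02 ± 0.21 (edgeR adjusted p = 2.4e-08) and Anxa2, a calcium-dependent membrane-binding protein, by 2.24 ± 0.16 (edgeR adjusted p = 4.4e-07). For Calcoco2 the WT libraries of the Pramel7 table stood higher than the WT libraries compared here. Gpa33, a surface antigen of intestinal epithelium, read 10.9 and 13.6 in WT and 8.85 and 11.9 in CtbpDKO, with overlap and no call (edgeR adjusted p = 0.22). All 6 channels, pumps and transporters were called higher. Aqp3 went from 1.42 and 2.23 to 44.5 and 49.6 CPM, a rise of 4.66 ± 0.17 (edgeR adjusted p = 7.7e-10). Atp6v0a4 went from 1.49 and 1.27 to 11.97 and 12.8 CPM.

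Of 10 ligands, receptors and signalling proteins, 6 were called higher and 2 lower. Hbegf went from 13.6 and 12.5 CPM to 66.5 and 60.9, a rise of 2.26 ± 0.12 (edgeR adjusted p = 2.4e-08). Among the 10 enzymes and inhibitors 9 were called higher and 0 lower, with Gpx2 at 2.48 and 2.57 CPM in WT and 28.2 and 28.03 in CtbpDKO. Klk10, a secreted serine protease of the kallikrein family, rose by 4.55 ± 0.34 (edgeR adjusted p = 4.8e-07). The 9 transcription factors were mixed, with 4 called higher and 2 lower. Among the 4 were Cphx1, Cphx2 and Cphx3, neighbouring copies whose values are not taken as independent. Cphx2 went from 0.662 and 0.959 to 22.9 and 26.7 CPM, while Epas1, a hypoxia-inducible factor, read 29.96 and 35.1 against 34.5 and 40.8 and was not called (edgeR adjusted p = 0.23). All 3 germ cell and oocyte genes were called higher, and Stra8 went from 2.48 and 1.85 to 30.02 and 24.96 CPM (3.64 ± 0.20, edgeR adjusted p = 2.4e-08). Catsperz, a subunit of the sperm calcium channel, rose by 1.49, but the call was lost without WT library 1 (edgeR adjusted p = 0.073) or CtbpDKO library 1 (edgeR adjusted p = 0.057). Trim29, a ubiquitin ligase that is also on the 2-cell list, gave 0 counts in both WT libraries and 2.67 and 2.91 CPM in CtbpDKO, at least 27.6-fold higher against a floor of 3 counts per library.

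Among the 5 members that fell were Tgfbi, Nkx6-3, Vax2 and Myo1f. Tgfbi, an extracellular matrix protein, read 4.67 and 4.62 CPM in WT and 1.799 and 1.84 in CtbpDKO (-1.38 ± 0.30, edgeR adjusted p = 0.0039). Nkx6-3, a homeobox factor of the stomach, read 9.04 and 10.4 against 4.05 and 5.37 (-1.08 ± 0.22, edgeR adjusted p = 0.0027). Myo1f, an unconventional myosin of immune cells, read 21.1 and 21.1 against 11.5 and 10.4. The call of the homeobox gene Vax2 rested on 1 library, and without WT library 2 its change stood at -0.81 (edgeR adjusted p = 0.067). These genes met the time course rule and yet stood lower in the CtbpDKO libraries of the genotype table.

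**Figure D2:**
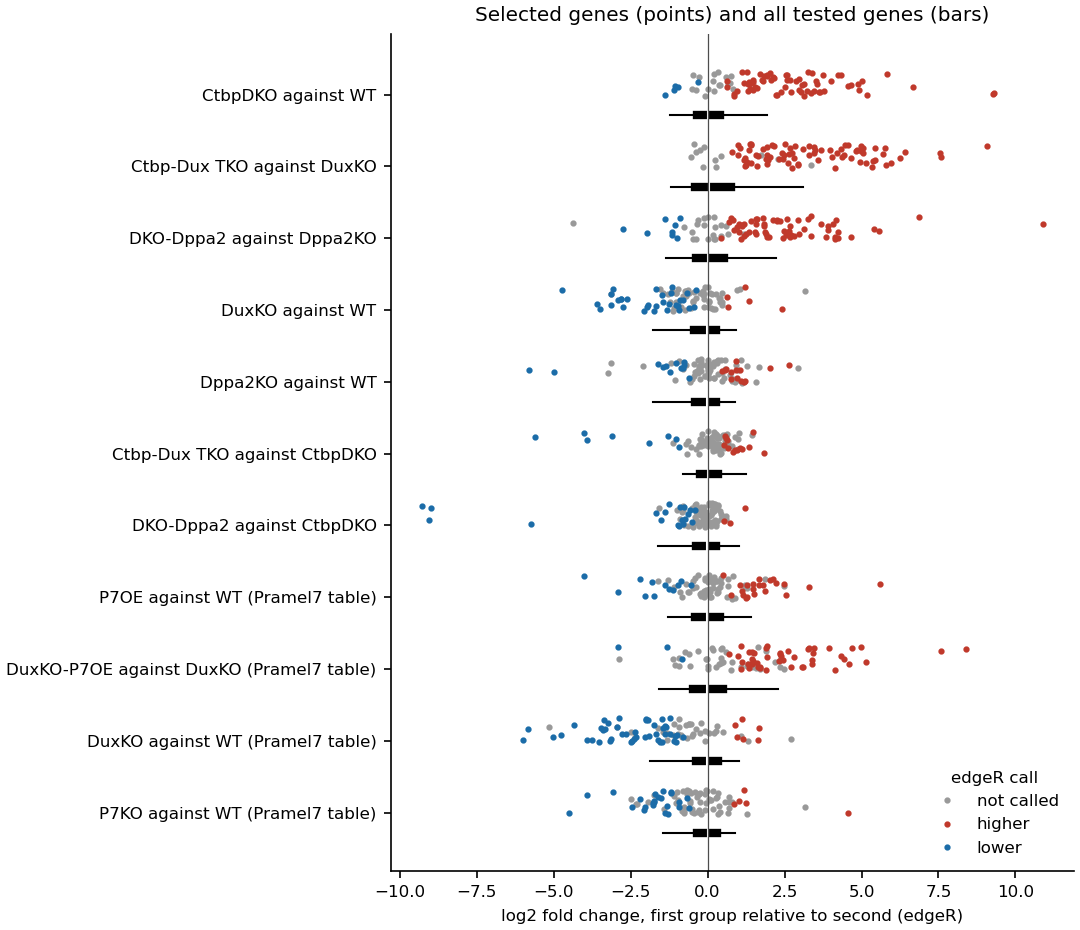
Log2 fold changes (x axis) of the 91 genes, as points coloured by call, in each comparison of the genotype and Pramel7 tables, over bars that span the 5th to 95th and 25th to 75th percentiles of all genes tested with a white tick at their median. The members' median is 1.92 in CtbpDKO against WT and 2.74 in Ctbp-Dux TKO against DuxKO, where the median of all genes is 0.01 and 0.04.

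The same loss of CtBP was also sequenced in cells without Dux and in cells without Dppa2, 2 comparisons that share no library with each other or with the first. In Ctbp-Dux TKO against DuxKO, 79 of 91 members were called higher and 0 lower by edgeR, against 21.4% and 19.6% of all genes. Their median was 2.74, or 2.65 with members at their floor set to their bound, and the median of all genes was 0.04. In DKO-Dppa2 against Dppa2KO, 62 were called higher and 8 lower, against 15.2% and 15.2% of all genes, with a median of 1.54 and an all-gene median of 0.01. Called higher in all 3 comparisons were 57 of the 91, in at least 1 comparison 83, and 4 were called in none. Over all 21193 genes tested these shares were 5.72%, 32.3% and 41.3%. Of the 47 genes that were halved but not restored, 16 were called higher in the first of these 2 comparisons and 9 in the second.

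Without Dux, Lgals3 read 2.69 and 3.61 CPM before and 96.5 and 116 after loss of CtBP, a rise of 5.04 ± 0.14 (edgeR adjusted p = 6.8e-11). Without Dppa2 it read 39.9 and 35.1 against 61.0 and 62.9, a rise of 0.83 ± 0.12 (edgeR adjusted p = 0.00013). Groups did not overlap in either background, and the Lgals3 level was lowest in the DuxKO libraries. Lmna ended between 117 and 149 CPM in every library without CtBP, and went from 13.0 and 11.4 to 133 and 144 CPM without Dux and from 21.1 and 20.04 to 129.6 and 117 without Dppa2. Crip1 went from 4.12 and 4.92 to 52.2 and 59.7 and from 3.98 and 3.30 to 62.1 and 57.0. Aqp3 read 2.36 and 3.28 against 50.7 and 50.5 and 3.72 and 3.69 against 52.2 and 47.9. In these 3 genes the groups with and without CtBP lay far apart in every background.

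All 13 cytoskeleton, lamina and cilium genes were called higher without Dux and 10 without Dppa2, with role medians of 3.47 and 2.68. Misp was at least 115-fold and at least 88.9-fold higher in these comparisons, since both baselines lay at or under 3 counts per library. Of the 10 enzymes and inhibitors all were called higher in both. Gpx2 went from 0.266 and 0.134 to 34.5 and 44.8 CPM without Dux, a rise of 7.56 ± 0.26 (edgeR adjusted p = 3.9e-10), and from 1.86 and 2.17 to 8.12 and 9.59 without Dppa2. Of the 9 transcription factors 8 were called higher and 0 lower without Dux, and 3 higher and 3 lower without Dppa2. The 3 called higher without Dppa2 were Cphx1, Cphx2 and Cphx3, neighbouring copies whose values are not taken as independent, and the 8 include them. Epas1 went from 12.5 and 15.4 to 99.7 and 106 CPM without Dux (2.85 ± 0.11, edgeR adjusted p = 1.0e-09) and read 49.4 and 45.9 against 41.2 and 40.5 without Dppa2, where it was not called. Zfp981, a KRAB zinc finger gene that overlaps another gene, read 0.930 and 1.04 against 29.6 and 32.6 without Dux and 2.45 and 3.89 against 5.01 and 2.08 without Dppa2.

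Among the 8 members that fell in DKO-Dppa2 against Dppa2KO were Tgfbi, Myo1f, Fgf15, Vax2, Pou4f2, Nkx6-3 and Gpa33, and 5 of the 8 had also fallen in CtbpDKO against WT. Tgfbi read 8.04 and 5.58 CPM in Dppa2KO and 1.45 and 0.520 in DKO-Dppa2 (-2.75 ± 0.33, edgeR adjusted p = 4.1e-05). Myo1f read 35.1 and 28.5 against 7.97 and 7.10 (-1.98 ± 0.14, edgeR adjusted p = 2.6e-07). Fgf15, a secreted growth factor, and Pou4f2, a POU factor of sensory neurons, fell by 1.37 and 1.14 on the log2 scale. Nkx6-3 fell by 1.05, a call that was lost without Dppa2KO library 1 (edgeR adjusted p = 0.054). In Ctbp-Dux TKO against DuxKO, where none of these 8 was called lower, Myo1f rose by 1.21 and Gpa33 by 3.98. Nkx6-3 and Pou4f2 were called higher there too.

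Other cell types were read beside these results. The summed level of 19 trophoblast markers was 217 to 241 CPM in WT and 897 to 1064 in CtbpDKO. It was 519 to 538 in DuxKO against 1016 to 1018 in Ctbp-Dux TKO, and 275 to 319 in Dppa2KO against 540.5 to 688 in DKO-Dppa2. Of the 19 genes, Tpbpa, Prl3d1 and Plac1 gave 0 counts in most groups. Elf5 gave 0 counts in WT, DuxKO and Dppa2KO but was detected in CtbpDKO, Ctbp-Dux TKO and DKO-Dppa2. The 19 primitive endoderm markers summed to 1014 to 1071 CPM in WT, 993 to 1044 in CtbpDKO, 678 to 712 in DuxKO, 2158 to 2327 in Ctbp-Dux TKO, 1018 to 1042 in Dppa2KO and 519 to 588 in DKO-Dppa2. The 13 fibroblast markers summed to 23.9 to 24.5 CPM in WT and 52.8 to 58.8 in CtbpDKO, with Fap at 0 in every group. In the time course the trophoblast sum was 455 to 469 CPM on day 0, 415 to 444 on day 3, 437 to 477 on day 9 and 553 to 585 on day 18. The part of these cell types in the members' results was not tested.

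**Figure D3:**
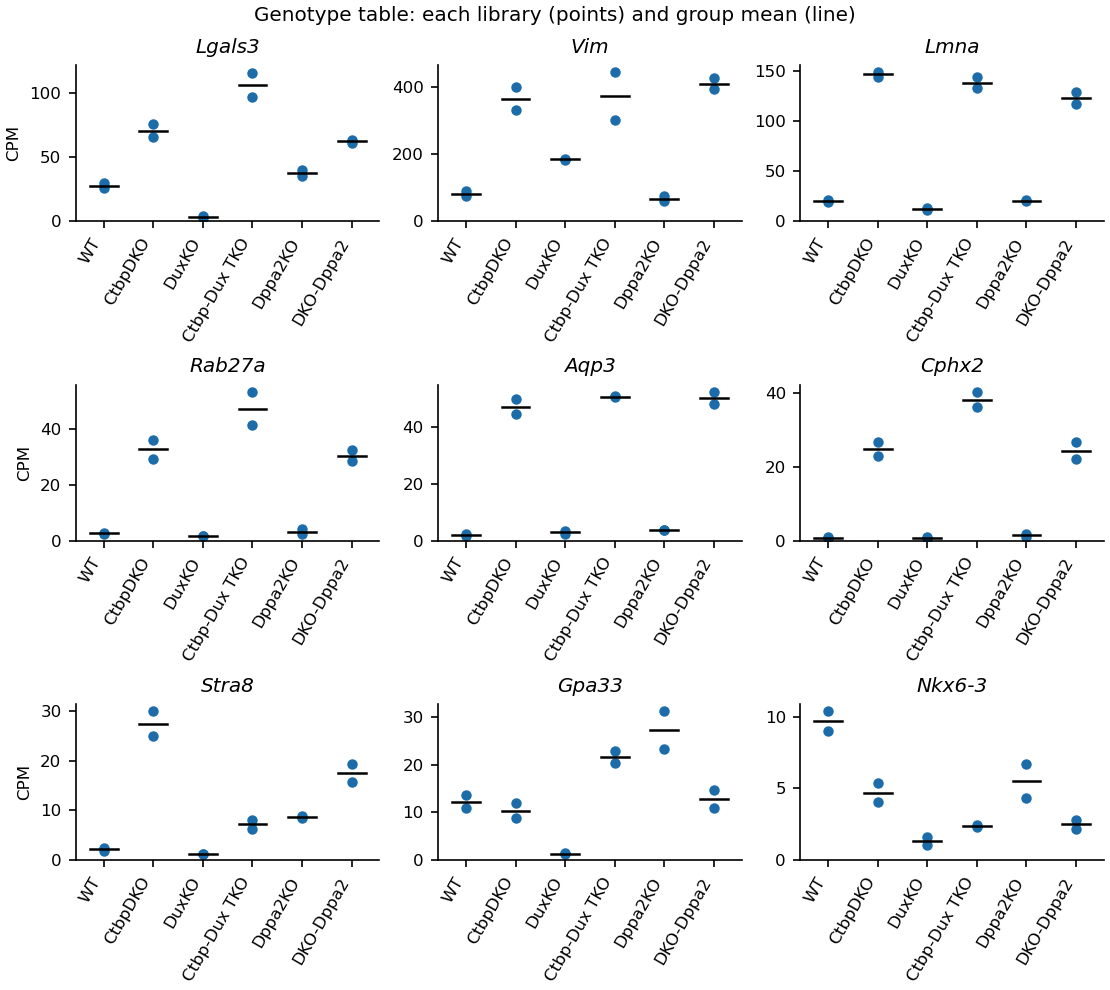
CPM in each library of the genotype table (points, y axis) with the group mean (line) for 9 members, 1 panel a gene, over the 6 genotypes on the x axis. Lgals3, Gpa33 and Nkx6-3 are low in both DuxKO libraries, and Lmna, Rab27a, Aqp3 and Cphx2 are high in every library that lacks CtBP.

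Loss of Dux alone lowered more members than it raised. In DuxKO against WT, 32 were called lower and 5 higher by edgeR, against 9.56% and 7.94% of all genes, with a median of -0.72 (-0.66 with bounds) and an all-gene median of -0.01. Lgals3 fell from 25.4 and 29.6 to 2.69 and 3.61 CPM (-3.09 ± 0.14, edgeR adjusted p = 6.3e-08). Gpx2 fell by 3.59 ± 0.32 (edgeR adjusted p = 8.5e-06) and Gpa33 by 3.15 ± 0.19 (edgeR adjusted p = 4.9e-07). Phlda2, an imprinted gene that restrains placental growth, went from 5.03 and 4.73 to 0.664 and 0.669 CPM, and Zfp981 from 8.58 and 6.54 to 0.930 and 1.04. Slfn9 read 1.19 and 0.856 in WT and 0 and 0.0669 in DuxKO, at least 10.2-fold lower. The genes that rose were Vim, Calcoco2, Aqp3, Tppp3 and 1 predicted gene, with Vim at 186 and 183 CPM in DuxKO (1.23 ± 0.13, edgeR adjusted p = 3.7e-05) and Calcoco2 at 8.34 and 6.25 against 0.993 and 1.85 (2.41 ± 0.22, edgeR adjusted p = 1.1e-05). The call of Aqp3 was lost without WT library 1 (edgeR adjusted p = 0.22) or DuxKO library 2 (0.23), and that of the microtubule protein Tppp3 without any of the 4 libraries (0.056 to 0.28).

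Loss of Dppa2 alone moved members both ways, with 14 called higher and 12 lower in Dppa2KO against WT, against 7.67% and 8.69% of all genes. The median was 0.06 (0.04 with bounds) and that of all genes -0.02. Calcoco2 rose to 9.28 and 8.08 CPM (2.64 ± 0.22, edgeR adjusted p = 7.6e-06), Stra8 from 2.48 and 1.85 to 8.43 and 8.88 (2.02 ± 0.20, edgeR adjusted p = 3.2e-05) and Gpa33 from 10.9 and 13.6 to 31.2 and 23.4 (1.18 ± 0.15, edgeR adjusted p = 0.00025). Slfn9 was at least 12.2-fold lower, and Phlda2 fell to 1.69 and 2.03 CPM (-1.37 ± 0.20, edgeR adjusted p = 0.00063). DuxKO and Dppa2KO share the WT libraries. The count in Dppa2KO was 16 without WT library 2 and 15 without Dppa2KO library 1.

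Among cells without CtBP, the further loss of Dux gave calls for a minority of members, though for a larger share than over all genes. In Ctbp-Dux TKO against CtbpDKO, 13 were called higher and 8 lower, against 3.6% and 4.54% of all genes, with a median of 0.27 and an all-gene median of 0.00. Epas1 rose from 34.5 and 40.8 to 99.7 and 106 CPM (1.49 ± 0.10, edgeR adjusted p = 4.6e-06), Zfp981 by 1.82 ± 0.33 (edgeR adjusted p = 0.0046) and Pou4f2 by 1.35 ± 0.20 (edgeR adjusted p = 0.0012). Stra8 fell from 30.02 and 24.96 to 6.23 and 8.12 CPM (-1.91 ± 0.17, edgeR adjusted p = 4.2e-05), and Hbegf from 66.5 and 60.9 to 25.3 and 25.6 (-1.29 ± 0.12, edgeR adjusted p = 4.0e-05). The count of 21 was 9 without CtbpDKO library 1, 10 without CtbpDKO library 2 and 12 without either Ctbp-Dux TKO library, and DESeq2 called 19 higher and 7 lower. Lgals3 was called higher by 0.63 ± 0.11, which was lost without CtbpDKO library 1 (edgeR adjusted p = 0.052). In the full fit 70 of the 91 members were not called either way, a smaller share than of all genes. An uncalled difference is not shown to be 0.

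The further loss of Dppa2 gave 3 members called higher and 19 lower in DKO-Dppa2 against CtbpDKO, against 5.75% and 9.67% of all genes, with a median of -0.14 and an all-gene median of -0.03. Rhobtb1, a small GTPase-related protein, fell from 8.22 and 9.02 to 2.71 and 2.16 CPM (-1.68 ± 0.27, edgeR adjusted p = 0.0013) and Gpx2 from 28.2 and 28.03 to 8.12 and 9.59 (-1.51 ± 0.16, edgeR adjusted p = 8.1e-05). Calcoco2 rose from 20.4 and 26.6 to 52.997 and 44.9 CPM (1.21 ± 0.17, edgeR adjusted p = 0.00047). The count of 22 was 13 without CtbpDKO library 1 or without DKO-Dppa2 library 2.

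Whether the response to loss of CtBP itself differed with Dux was tested as an interaction, the change in DuxKO cells minus that in WT cells. It was called for 42 of the 91, positive in 39 and negative in 3, against 9.81% and 9.63% of all genes, with a median of 0.90 and an all-gene median of 0.03. Gpa33 showed 4.25 ± 0.24 (edgeR adjusted p = 4.1e-07): it was not called with Dux present and rose from 1.39 and 1.27 to 20.4 and 22.9 CPM without it. Zfp981 showed 4.72 ± 0.53 (edgeR adjusted p = 6.5e-05), Gpx2 4.11 ± 0.36 (edgeR adjusted p = 8.2e-06), Lgals3 3.71 ± 0.18 (edgeR adjusted p = 1.0e-07), Phlda2 3.44 ± 0.29 (edgeR adjusted p = 6.5e-06) and Epas1 2.67 ± 0.15 (edgeR adjusted p = 4.1e-07). In Gpa33, Zfp981, Gpx2, Lgals3 and Phlda2 the DuxKO baseline differed from WT by -2.83 to -3.59 on the log2 scale. Slfn9 showed 5.76, a fitted value that depends on the prior count because its DuxKO baseline is under the floor.

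Negative interactions were called for Calcoco2 (-2.12 ± 0.28, edgeR adjusted p = 0.00021), Vim (-1.16 ± 0.18, edgeR adjusted p = 0.00083) and Stra8 (-1.19 ± 0.30, edgeR adjusted p = 0.013). Calcoco2 and Vim stood higher in DuxKO than in WT before CtBP was lost and reached 27.7 and 27.9 and 303 and 445 CPM after it. The call of Stra8 was lost without WT library 2 (edgeR adjusted p = 0.058) or DuxKO library 1 (0.056). For Crip1 (0.32, edgeR adjusted p = 0.18), Aqp3 (-0.52, 0.13), Cphx2 (0.90, 0.15) and Hbegf (-0.33, 0.20) no interaction was called. The DuxKO and Ctbp-Dux TKO libraries enter both this test and the comparisons above, so it is not separate support for them.

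**Figure D4:**
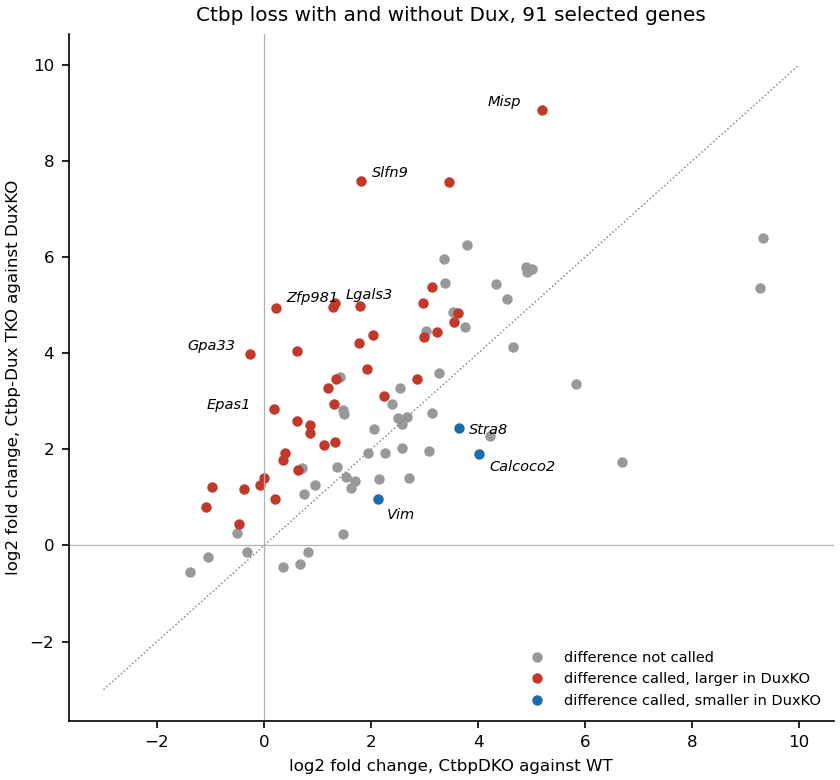
Each point is 1 of the 91 genes, with its log2 fold change on loss of CtBP in cells with Dux on the x axis (CtbpDKO against WT) and in cells without Dux on the y axis (Ctbp-Dux TKO against DuxKO), coloured by the call of the difference between the 2 changes. The 39 genes with a called positive difference lie above the diagonal, among them Gpa33, Zfp981 and Epas1, and Vim, Calcoco2 and Stra8 lie below it.

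With Dppa2 the interaction was called for 22 members, positive in 4 and negative in 18, against 3.23% and 5.0% of all genes, with a median of -0.41 and an all-gene median of -0.01. The positive calls were Misp, Slfn9, Arhgap30 and Crip1, the last at 0.85 (edgeR adjusted p = 0.0068). Misp (5.69) and Slfn9 (5.05) rest on Dppa2KO baselines under the floor, so these fitted sizes depend on the prior count. Arhgap30, a GTPase-activating protein, showed 1.43 ± 0.34, a call that was lost without WT library 1 (edgeR adjusted p = 0.10), Dppa2KO library 1 (0.078), CtbpDKO library 1 (0.051) or 2 (0.07) or DKO-Dppa2 library 1 (0.07). Stra8 showed -2.53 ± 0.26 (edgeR adjusted p = 0.00015), Rhobtb1 -2.50 ± 0.41 (edgeR adjusted p = 0.0031) and Hbegf -1.83 ± 0.16 (edgeR adjusted p = 6.2e-05). The Dppa2KO libraries read 27.0 and 27.3 CPM for Hbegf, above the WT values of 13.6 and 12.5, and the DKO-Dppa2 libraries 36.4 and 32.0, so its level without CtBP and Dppa2 lay below the 66.5 and 60.9 of CtbpDKO. Itgb3, an integrin subunit of platelets and osteoclasts, showed -1.85 ± 0.40, lost without WT library 2 (edgeR adjusted p = 0.073) or CtbpDKO library 2 (0.055). The count of 22 was 13 without WT library 2 and 14 without WT library 1, Dppa2KO library 1, CtbpDKO library 2 or DKO-Dppa2 library 1.

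The Pramel7 table was normalised and fitted apart from the genotype table, so changes were tested only within it. CPM of the WT libraries was set beside that of the genotype table for a few genes, with no test. Of the 91 members 87 passed its filter on low counts, and Trim29, Ldha-ps and 2 predicted genes did not. Its own DuxKO and WT libraries gave a second reading of Dux loss: 46 members were called lower and 6 higher, against 8.92% and 7.75% of the 20161 genes tested, with a median of -1.39 (-1.31 with bounds) and an all-gene median of -0.01. Called lower in both tables were 24, which is 75% of the 32 of the genotype table and 52.2% of the 46 of this one. Over all genes, 663 were called lower in both, 3.4% of the 19516 tested in both, 32.7% of those called lower in the genotype table and 36.9% of those called lower here. Lgals3 read 24.1, 26.0, 50.5 and 31.9 CPM in WT and 3.43 and 4.94 in DuxKO (-2.88 ± 0.24, edgeR adjusted p = 7.0e-06). Phlda2 fell from 10.1 to 16.0 CPM in WT to 0.392 and 0.569, and Gpa33 from 16.4 to 26.2 to 1.32 and 2.67. Vim rose in both tables, here from 52.1 to 93.1 in WT to 174 and 237 CPM (1.66 ± 0.14, edgeR adjusted p = 8.5e-06).

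Some members moved in opposite directions in the 2 tables. Calcoco2 rose by 2.41 in the genotype table and fell by 1.44 ± 0.19 here (edgeR adjusted p = 0.00029), from 9.50, 10.4, 12.3 and 11.2 to 4.02 and 3.52 CPM. Aqp3 was called higher by 0.67 there and fell by 2.46 here (edgeR adjusted p = 1.4e-05). Nkx6-3 fell by 2.82 there and was called higher by 1.13 here, a call that was lost without DuxKO library 4 (edgeR adjusted p = 0.058). The Nkx6-3 libraries of WT read 9.04 and 10.4 CPM there and 0.717 to 1.203 here, so the WT libraries of the 2 tables differ for this gene. They differ for Calcoco2 too, which stood lower in both WT libraries there than in any WT library here. Within the WT of this table libraries 3 and 4 stood apart from 5 and 6 for some members, as for Epas1, at 10.0, 10.6, 30.3 and 34.4 CPM.

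Pramel7, a leucine-rich repeat protein of the early embryo that takes part in the degradation of Uhrf1, was overexpressed with and without Dux. In cells with Dux (P7OE against WT), 22 members were called higher and 12 lower, against 11% and 8.9% of all genes, with a median of 0.18 and an all-gene median of -0.01. Tgfbi rose from 1.30, 1.59, 1.89 and 1.65 to 7.997 and 10.9 CPM (2.55 ± 0.21, edgeR adjusted p = 7.5e-06), and Catsperz from 1.16 to 1.495 to 7.23 and 8.03 (2.47 ± 0.21, edgeR adjusted p = 9.5e-06). Vim (1.11 ± 0.14, edgeR adjusted p = 0.0002), Hbegf (1.25 ± 0.15, edgeR adjusted p = 0.0001) and Zfp981 (1.29 ± 0.20, edgeR adjusted p = 0.00069) also rose. Atp6v0a4 fell from 3.46, 4.22, 4.38 and 4.23 to 0.697 and 0.352 CPM (-2.90 ± 0.32, edgeR adjusted p = 6.2e-05) and Phlda2 to 3.68 and 4.40. Lgals3 read 23.6 and 23.6 CPM, just under the lowest WT library, and was not called (-0.47, edgeR adjusted p = 0.12). The count of 34 was 20 without P7OE library 1 and 22 without P7OE library 2.

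In cells without Dux (DuxKO-P7OE against DuxKO), 47 members were called higher and 3 lower, against 11.6% and 9.83% of all genes, with a median of 1.49 and an all-gene median of -0.03. Gpa33 rose from 1.32 and 2.67 to 42.3 and 45.3 CPM (4.34 ± 0.23, edgeR adjusted p = 2.2e-07) and Zfp981 from 0.932 and 1.21 to 29.0 and 31.1 (4.70 ± 0.30, edgeR adjusted p = 7.5e-07). Arhgap30 rose by 5.13 ± 0.41 (edgeR adjusted p = 4.9e-06) and Hydin by 4.99 ± 0.62 (edgeR adjusted p = 0.00015). Tmem40, a transmembrane protein, was at least 73.5-fold, Slfn9 at least 15.7-fold and Nxph4, a neurexophilin, at least 14.4-fold higher. Lgals3 rose to 15.1 and 18.7 CPM (1.91 ± 0.26, edgeR adjusted p = 0.00027), still under the lowest WT library. The 3 that fell were Vax2 (-2.91 ± 0.48, edgeR adjusted p = 0.0012), Nkx6-3 and Vim. Vim went from 174 and 237 to 126 and 121 CPM, and its call was lost without DuxKO library 4 (edgeR adjusted p = 0.057), as was that of Nkx6-3 (0.056), which was also lost without DuxKO-P7OE library 1 (0.097). The Pramel7 RNA was higher in DuxKO-P7OE than in P7OE, and an interaction of the 2 overexpressions was not tested. The primitive endoderm sum was 1739 to 1779 CPM in P7OE and 1625 in DuxKO-P7OE, against 706 to 1220 in WT and 556 to 686 in DuxKO, and its part in the members' values was not tested.

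In cells knocked out for Pramel7 (P7KO against WT), 24 members were called lower and 5 higher, against 5.55% and 3.93% of all genes. The median was -0.57 and that of all genes 0.01. Pramel7 RNA was at most 0.172 CPM in these WT and P7KO libraries, too low to check the knockout. Tmem40 fell from 2.43, 2.91, 4.17 and 2.85 to 0.220 and 0.0712 CPM (-4.50 ± 0.40, edgeR adjusted p = 2.7e-05), Phlda2 to 1.06 and 0.961 (-3.92 ± 0.23, edgeR adjusted p = 7.8e-07) and Zfp981 to 2.83 and 1.21 (-3.09 ± 0.26, edgeR adjusted p = 1.4e-05). Gpa33 fell to 5.99 and 5.44 CPM (-2.07 ± 0.19, edgeR adjusted p = 2.9e-05). Nkx6-3 rose from at most 1.203 CPM in WT to 25.3 and 22.1 (4.57 ± 0.19, edgeR adjusted p = 2.9e-08), and Cpne5, a calcium-dependent phospholipid-binding protein, rose by 1.18. Neither Lgals3 (-0.33, edgeR adjusted p = 0.36) nor Vim (0.04, 0.90) was called. Epas1 was called higher by 1.25, a call that was lost without WT library 3, WT library 4 or either P7KO library (edgeR adjusted p = 0.063 to 0.22). The count of 29 was 14 without either P7KO library. P7OE, DuxKO and P7KO share the same 4 WT libraries.

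**Figure D5:**
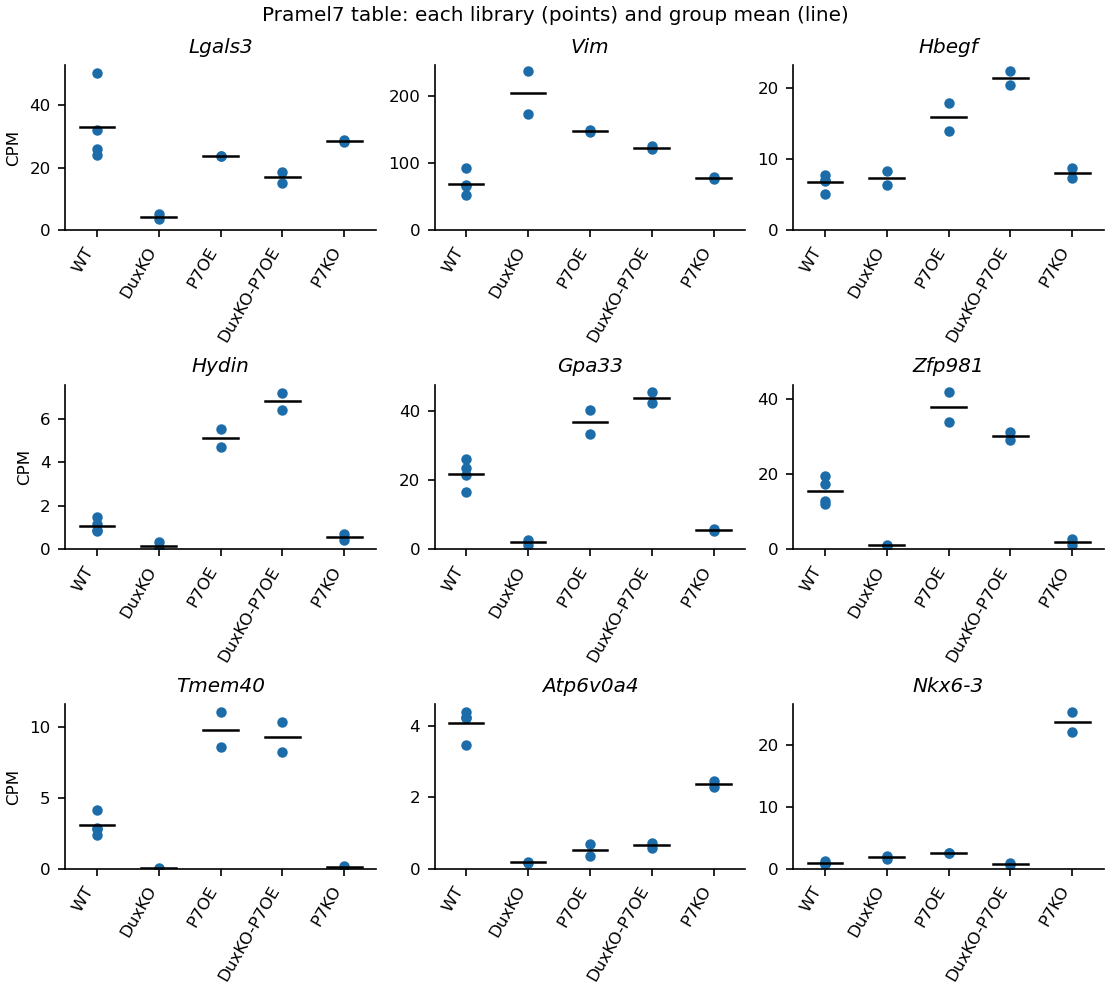
CPM in each library of the Pramel7 table (points, y axis) with the group mean (line) for 9 members, 1 panel a gene, over WT, DuxKO, P7OE, DuxKO-P7OE and P7KO on the x axis. Gpa33, Zfp981 and Tmem40 are low in DuxKO and in P7KO and higher in both overexpressing groups, and Nkx6-3 is high in P7KO alone.

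Genes outside the set show what was and was not shared with it. Of 28 keratin and epithelial junction genes, none a member, 21 were called higher and 1 lower in CtbpDKO against WT. The calls were 24 and 0 in Ctbp-Dux TKO against DuxKO and 21 and 2 in DKO-Dppa2 against Dppa2KO. Over all genes the shares in these comparisons were 14.7% and 11.4%, 21.4% and 19.6%, and 15.2% and 15.2%. Krt8, a keratin of simple epithelia, rose by 2.66 ± 0.14 (edgeR adjusted p = 1.9e-08) and Cdh1, E-cadherin, by 1.68 ± 0.09 (edgeR adjusted p = 2.9e-08) in the first. In the time course, which did not choose these genes, 9 of 27 were called lower and 0 higher on day 3 against day 0, but 6 were called higher and 0 lower on day 9 against day 3, and 3 higher and 0 lower on day 12 against day 9. Their sum was 1335 to 1437 CPM on day 0, 1063 to 1072 on day 3, 1339 to 1407 on day 9 and 1560 to 1593 on day 12, so on day 9 it overlapped the day 0 range while the members stayed low. Krt8 fell by 1.19 on day 3 (edgeR adjusted p = 3.5e-05) and rose by 0.68 on day 12 (edgeR adjusted p = 0.0032), while Cdh1 was not called on day 3 (-0.30, edgeR adjusted p = 0.18). Of 7 further galectin genes tested, 3 were called higher and 0 lower in each of the 3 comparisons, and 0 of 5 were called on day 3.

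The partners of CtBP moved less uniformly. Of 16 genes of its corepressor complex, Ctbp1 and Ctbp2 among them, 5 were called higher and 4 lower in CtbpDKO against WT. Of 17 factors that recruit it, 6 and 4 were called, including Zeb2 at -1.95. Over all genes in this comparison 14.7% were called higher and 11.4% lower. Of 15 epithelial and proapoptotic genes known as CtBP targets in fibroblasts, which share Krt8, Krt18 and Cdh1 with the junction list, 6 were called higher and 3 lower. Of the trophoblast list 10 of 15 were called higher and 0 lower, of the germline list 10 of 18 and 1, and of the 2-cell list outside the left-out families 8 of 12 and 0. The 2-cell list had 4 genes called higher in Ctbp-Dux TKO against DuxKO and 2 in DKO-Dppa2 against Dppa2KO, each of 12 genes. Over all genes 21.4% and 15.2% were called higher in these comparisons. In the time course its 16 detected genes summed to 44.8 to 64.3 CPM on day 0, 32.0 to 40.8 on day 3, 23.4 to 24.97 on day 9, 21.6 to 25.8 on day 12 and 33.8 to 40.6 on day 18. In CtbpDKO against WT, 3 of the 24 lysosome genes were called higher and 10 lower, against 14.7% and 11.4% of all genes.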

How the data were processed

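RNA was measured in 34 libraries of E14tg2a cells in 3 tables: genotype (12 libraries), Pramel7 (12) and time course (10). A second genotype table of 8 libraries holds the same values and was not used again, and 6 bisulfite samples were not analysed here. The authors deposited raw counts per gene. Per the submitters' processing notes, Trim Galore, HISAT2, featureCounts and mm10 were used, with no versions given, and Bismark for methylation. Per the labels' protocols the library kit is stranded, and whether counting used strand is not given in the sources used here. Total counts ran from 10123058 to 36025046 a library and set the precision of each value.

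From the counts, CPM was computed on column totals, and edgeR 4.0.16 with limma 3.58.1 in R 4.3.3 gave TMM factors (0.878 to 1.17), the default filter on low counts (21193, 20161 and 20612 genes kept), and the quasi-likelihood test over all groups of a table, with Benjamini-Hochberg adjustment over all genes kept and a threshold of 0.05. Errors of log2 fold changes are SE from the F statistic, n is 2 libraries a group except 4 for WT of the Pramel7 table, and fold bounds use a floor of 3 counts per library. The fit was tested on simulated data. Promoters and positions came from RefSeq tables of GRCm38.p6. The members, gene lists and comparisons were chosen with earlier results of these data known, and roles were assigned after the values were seen. Of the members, 1 is counted but not reported by name here. Named genes are Lgals3, Ctbp1 and Ctbp2, the 10 members highest on day 0, the 10 lowest on days 3 and 9 relative to day 0 (10 CPM or more on day 0), the 10 largest rises and 5 largest falls in CtbpDKO against WT, up to 3 a direction in every other comparison, members of the lists and 3 genes on each side of each threshold of the rule. Alternatives were DESeq2 1.42.0, upper quartile scaling, totals without structural RNA genes, no filter, only the groups compared, each library left out, a log2 change of at least 1 and a replicate block. Added after seeing the data were leaving out pairs of WT libraries and members that overlap another gene.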

Additional observations from a re-analysis of the deposited data

Results flagged for a closer look

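In the 4 WT libraries of the Pramel7 table, 48 named members were tested for a library far from the other 3, and 4 were marked, where chance marks about 1 in 20. Library 5 was the highest for the neighbouring copies Cphx1 (3.61 CPM), Cphx2 (7.56 CPM) and Cphx3 (6.96 CPM), whose reads may not be told apart. Library 6 was the highest for Myo1g, a myosin of immune cells, at 2.72 CPM.

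The response to loss of CtBP differed with Dux for 42 members by the edgeR interaction test. Among the named members the log2 difference was 5.76 for Slfn9, 4.72 for Zfp981, 4.25 for Gpa33, -1.16 for Vim, -2.12 for Calcoco2 and -1.19 for Stra8. With Dppa2 it differed for 22 members, and was 5.69 for Misp, 5.05 for Slfn9, 1.43 for Arhgap30, -1.85 for Itgb3, -2.50 for Rhobtb1 and -2.53 for Stra8. The values of Slfn9 and Misp rest on baselines under 3 counts per library.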

How the results depend on the processing

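The set itself numbered 49 genes with a day 0 minimum of 5 CPM, 97 with TMM-scaled totals and 104 without structural RNA genes, and 94 to 122 with 1 library of each day left out. With a log2 change of at least 1 also required, the calls among members were 13 of 26 for Dppa2KO against WT, 12 of 21 for Ctbp-Dux TKO against CtbpDKO and 9 of 22 for DKO-Dppa2 against CtbpDKO. Without members that overlap another gene, 13 calls were left for Ctbp-Dux TKO against CtbpDKO and 14 for the Dppa2 interaction, since fewer members entered. Leaving out 1 library gave 15 to 26 calls for Dppa2KO against WT, 9 to 12 for Ctbp-Dux TKO against CtbpDKO, 13 to 16 for DKO-Dppa2 against CtbpDKO, 13 to 17 for the Dppa2 interaction, 20 to 35 for P7OE against WT and 14 to 32 for P7KO against WT. The counts of the other comparisons stayed within 1.5 times under these settings, and under DESeq2, upper quartile scaling, no filter and totals without structural RNA genes all 13 did. No scaling moved the median of all genes by over 0.1.

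Replicate numbers did not pair the libraries: the correlation of same-numbered deviations ran from -0.068 to 0.092. With the number as a replicate block the calls were 72 for CtbpDKO against WT, 79 for Ctbp-Dux TKO against DuxKO, 70 for DKO-Dppa2 against Dppa2KO, 42 for the Dux interaction and 17 for the Dppa2 interaction, none moved by over 1.5 times. No paired analysis was possible for P7OE, DuxKO-P7OE and P7KO because the groups compared share fewer than 2 numbers.

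Leaving out WT libraries 3 and 4, or 5 and 6, of the Pramel7 table gave 35 and 38 calls for P7OE, 54 and 54 for DuxKO and 28 and 35 for P7KO against WT. Without libraries 5 and 6, the log2 change of Pou4f2, DuxKO against WT (Pramel7 table), was -0.64 and not called (edgeR adjusted p = 0.14). Over 348 results of named genes and 3887 alternatives, 348 alternatives lost the call and 0 reversed. The cause of these changes was not tested. Groups of 2 libraries limit all calls, and members near 0 in a group can only be given as bounds.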
